A study of Mus musculus with 9 samples.

Results

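B1-like B cells of the mouse spleen were read here as the barcodes that carried transcripts of both Bhlhe41 and Zbtb20 among B cells without Fcer2a (the gene of CD23). The data were droplet libraries of single splenocytes in which transcripts, surface antibody tags and hashtags were counted in the same barcode. A barcode was taken when it held at least 200 genes, at most 10% mitochondrial UMIs (molecules counted once by their molecular tag) and 1 clear hashtag, at least 3 UMIs of Cd79a and Cd79b, none of Cd3d, Cd3e and Cd3g, at least 1 of Bhlhe41 and 1 of Zbtb20, none of Fcer2a, none of the marginal zone genes Myof, Dtx1 and S1pr3, and fewer than 5 of Xbp1. This chose 499 of 45217 barcodes with a single hashtag, of which WT gave 128, R594C/+ 247 and R594C/R594C 124. Members were thus chosen by raw UMIs of 12 genes in the same cells, so their transcripts are described beside those of other B cells without a test. Tests were kept to the antibody tags, which the choice did not read, and to the genotypes.

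The genotypes were WT, heterozygous R594C/+ and homozygous R594C/R594C mice, with the substitution in IRE1, a sensor of unfolded protein in the endoplasmic reticulum (ER) that the gene Ern1 encodes. Total live splenocytes of each genotype were loaded in 1 capture, and hashtags marked 4 replicates of WT, 4 of R594C/+ and 2 of R594C/R594C. Genotype, capture and staining therefore cannot be told apart, and the labels do not say whether the replicates were separate animals, nor give age, sex or strain, so p-values measure the spread between hashtagged samples. By Xist and Y-linked transcripts WT replicates 1, 3 and 4 and R594C/R594C replicate 1 expressed male genes, and the other 6 replicates, all 4 of R594C/+ among them, female genes. The captures held 16027, 17980 and 17444 barcodes. Among the 45217 with a single hashtag, 372 carried a sequence found in more than 1 capture. No 2 B1-like barcodes shared a sequence, and sharing between B1-like and other barcodes was not counted. B1-like cells had a median of 4973 RNA UMIs and 512 antibody tag UMIs, against 2686 and 429 in Fcer2a-positive B cells, and their sums per replicate ran from 147589 RNA UMIs (WT replicate 1) to 431520 (R594C/+ replicate 4).

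B1 cells are innate-like B lymphocytes that arise largely early in life, renew themselves and secrete natural IgM without immunization. They are known by low IgD and CD23 and by surface CD43, and the B1a subset also by CD5, a dampener of antigen receptor signals. Bhlhe41 encodes a transcriptional repressor required for B1a cells, Zbtb20 a zinc finger factor of long-lived plasma cells, and Zbtb32 a zinc finger repressor known from memory B cells. IRE1 cuts Xbp1 messenger RNA so that it can be spliced into the form that drives ER expansion in antibody secretion. CD73, CD80 and switched heavy chains are also features of memory B cells, and the criteria above contain none that would separate memory from B1 cells.

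The surface measurements below rest on oligonucleotides joined to antibodies, each read as a DNA tag of 15 bases from the deposited feature list. Shown here are tags that the results below turn on, from CD73 to CD24 in the order printed, and the tags of the CD21/CD35 and CD23 antibodies that mark the compared B cells. The whole run is in capitals because all of it is matched in counting.
CD73: ACACTTAACGTCTGG
CD43: TTGGAGGGTTGTGCT
CD5: CAGCTCAGTGTGTTG
CD80: GACCCGGTGTCATTT
IgD: TCATATCCGTTGTCC
CD24: TATATCTTTGCCGCA
CD21_CD35: GGATAATTTCGATCC
CD23: TCTCTTGGAAGATGA

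The replicate of each cell came from the hashtag antibodies, which share the tag format and bind all cells. They are shown because every value per replicate below depends on them.
Hashtag1: ACCCACCAGTAAGAC
Hashtag2: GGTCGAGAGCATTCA
Hashtag3: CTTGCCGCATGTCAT
Hashtag4: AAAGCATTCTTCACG

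The label was first checked against its markers. Bhlhe41 (chromosome 6, 145858243 to 145865420 in GRCm38.p6) averaged 326 ± 45 UMIs scaled to CPM (counts divided by the replicate's total and multiplied by a fixed factor; mean ± SD, n = 10 replicates) in the B1-like cells and 10.8 ± 4.7 in Fcer2a-positive B cells, a difference set by the choice, as was that of Zbtb20 (chromosome 16, 42875689 to 43634392). The other 3 markers were not used. Apoe (chromosome 7, 19696244 to 19701310), which encodes a lipid carrier, averaged 2736 ± 1001 CPM against 241 ± 85 in Fcer2a-positive B cells. Nt5e (chromosome 9, 88327609 to 88372089), the gene of CD73, averaged 194 ± 56 against 11.98 ± 3.4. Zbtb32 (chromosome 7, 30589680 to 30602819) averaged 73.4 ± 24 against 1.89 ± 1.7. Each of the 3 was higher in the B1-like cells of all 10 replicates, and the groups of replicate values did not overlap. Of the 499 barcodes, 59 held a UMI of all 3 genes, 196 of 2, 168 of 1 and 76 of none.

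At equal depth these genes were still seen most often in the B1-like cells. With every cell thinned to 2000 UMIs (13 B1-like, 1132 Fcer2a-positive, 151 marginal zone gate and 628 T cells were shallower and left out), a UMI of Apoe was seen in 69.1% of B1-like cells (74.9% unthinned), 18.5% of Fcer2a-positive B cells, 34.1% of marginal zone gate B cells and 2.62% of T cells. Nt5e was seen in 27.2% (48.3% unthinned), 1.24%, 8.05% and 11.7%, and Zbtb32 in 9.67% (24.4% unthinned), 0.19%, 1.91% and 0.84% of the same classes. T cells, with a median of 3597 UMIs before thinning, serve as the level that free RNA could give for Apoe only. They express Nt5e themselves, and Zbtb32 was seen more often in them (0.84%) than in Fcer2a-positive B cells (0.19%).

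The edges of the choice were uneven. The 270 members with exactly 1 Bhlhe41 UMI held 13.7 CD43 tag UMIs per cell and the 229 with 2 or more held 18.0, while the 2341 barcodes that failed only for want of Bhlhe41 held 4.503. The 177 barcodes that failed only on Zbtb20 held 4.18, and the 101 that failed only on Fcer2a held 8.25. The 420 barcodes that failed only on Myof, Dtx1 and S1pr3, most of them through Dtx1 (331), held 15.8 CD43 UMIs per cell, close to the 15.7 of the members, and 8.18 of CD5. They had a median of 6239.5 RNA UMIs and made up 9.94% of the marginal zone gate class used for comparison below. The 351 that failed only on Xbp1 had a median of 19772 RNA UMIs.

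Other B cells from the same replicates served for comparison. The Fcer2a-positive class held 8059 B cells with Fcer2a UMIs, chiefly follicular B cells by this gene, and the marginal zone gate class held 4225 B cells with Myof, Dtx1 or S1pr3 and no Fcer2a. Of the 28 listed B1 genes outside the choice, 25 reached a mean of 20 CPM, and 20 of those were higher than in Fcer2a-positive cells in all 10 replicates and none lower, with a median log2 ratio of 1.89 (pseudocount 10 CPM). Over all 6080 genes at that level, 7.12% were higher in all 10 replicates, 11.8% were lower in all 10, and the median log2 ratio was -0.05. Against the marginal zone gate class 12 of the 25 were higher in all 10 replicates (4.44% of all genes), with a median log2 ratio of 0.89.

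Among genes of adhesion and cytoskeleton, Lgals1, which encodes galectin-1, averaged 290 ± 102 CPM in the B1-like cells, 30.9 ± 8.1 in Fcer2a-positive and 58.8 ± 16 in marginal zone gate cells. Itgb1, the integrin beta-1 chain, averaged 214, 25.2 and 69.0 CPM, and Cd9, a tetraspanin, averaged 144, 14.9 and 106. Vim (vimentin) averaged 578, 245 and 165 CPM and Cd44, a hyaluronan receptor, 180, 57.8 and 81.8. All of these were higher than in Fcer2a-positive cells in 10 of 10 replicates, and all but Cd9 (8 of 10) also higher than in marginal zone gate cells in all 10. Ctla4, an inhibitory receptor better known from T cells, averaged 102 ± 60 CPM against 7.79 in Fcer2a-positive cells and ran from 20.3 to 182 between replicates. Fcer1g, the activating gamma chain of Fc receptors, averaged 302.1 against 35.8. Of 11 inhibitory receptors and phosphatases 3 were higher in all 10 replicates and 1 lower, with a median log2 ratio of 0.15. Ptpn22, a phosphatase of antigen receptor signalling, averaged 191 against 34.3, while Pecam1 averaged 87.2 against 142 and Cd22 181 against 234.

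Some of the widest differences lay outside the gene lists, and these genes were chosen after their values were seen. Dnm3, a dynamin, averaged 87.3 CPM in the B1-like cells and 1.51 in Fcer2a-positive cells, Fgl2 106.7 and 5.22, Actn1 89.7 and 5.88, and Wipf3 46.3 and 0.16. At the other end Satb1, a chromatin organizer, averaged 112 against 1048 CPM, Neurl3 26.8 against 228 and C230085N15Rik 46.2 against 567. These 7 genes kept their direction in all 10 replicates.

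Of 11 follicular genes 8 were lower in all 10 replicates and none higher, with a median log2 ratio of -0.99. Ighd, the IgD heavy chain, averaged 166 ± 63 CPM against 967 ± 89, Cd55 132 against 470 and Bach2, a repressor of plasma cell fate, 81.7 against 239. Of 7 marginal zone genes 4 were lower than in Fcer2a-positive cells in all 10 replicates and none higher (median log2 ratio -0.85), and 6 were lower than in marginal zone gate cells in all 10 (median -1.26), where 7.42% of all genes were. Cr2, which encodes CD21 and CD35, averaged 26.0 CPM in the B1-like, 215 in the Fcer2a-positive and 396 in the marginal zone gate cells, with no overlap between the B1-like and either class. Ebf1, a factor of B cell identity, averaged 629, 1540.4 and 1428 CPM. The migration receptors Cxcr5, Ccr6 and Gpr183 averaged 156, 36.5 and 196 CPM against 318, 96.2 and 449 in Fcer2a-positive cells, all lower in 10 of 10 replicates.

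Of the 16 immediate early genes, which respond to recent stimulation, 10 were lower than in Fcer2a-positive cells in all 10 replicates and none higher, with a median log2 ratio of -0.69. Egr3 averaged 74.2 ± 48 CPM against 277 ± 56, Nr4a1 506 ± 202 against 1224 ± 197 and Myc 126 ± 52 against 247 ± 35. Against marginal zone gate cells 9 of the 16 were lower in all 10 (7.42% of all genes), and Myc averaged 400 CPM there.

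Genes of secretion divided by group. The ER chaperone Hsp90b1 averaged 884 ± 249 CPM against 414 ± 49, and 4 of 14 chaperone genes were higher in all 10 replicates and none lower, while Hspa5, the main ER chaperone, averaged 577 against 655 and was higher in 3 of 10. In the plasma cell programme 5 of 9 genes were higher in all 10 replicates, among them Tent5c (220 against 40.5 CPM), Txndc5 (173 against 60.2), Creb3l2 (34.9 against 5.21) and Prdm1, the plasma cell master regulator (26.0 against 5.40). Irf4 averaged 189 against 210 CPM and was higher in 4 of 10. Single barcodes held much of some sums: 98.2% of the Jchain UMIs of WT replicate 1 and 94.0% of those of R594C/+ replicate 3 came from 1 barcode each. Of antigen presentation genes, 6 of 9 for MHC class I were higher in all 10 replicates and none lower (H2-K1 2335 against 1754 CPM, Psmb9 427 against 218). For MHC class II 2 of 10 were lower in all 10 and none higher, where 11.8% of all genes were lower. Against marginal zone gate cells 5 of these 10 were higher in all 10 replicates (4.44% of all genes) and none lower, with a median log2 ratio of 0.25.

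**Figure D1:**
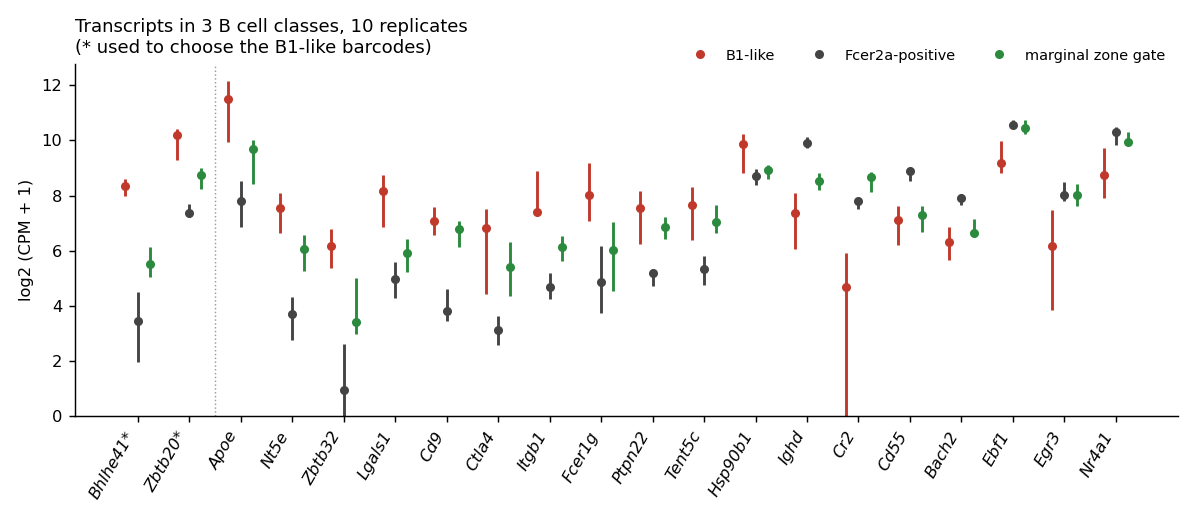
Levels of selected transcripts as log2 (CPM + 1) in B1-like (red), Fcer2a-positive (grey) and marginal zone gate (green) B cells. Points are medians and lines the range over 10 replicates. Bhlhe41 and Zbtb20, left of the dotted line, chose the B1-like cells. Apoe, Nt5e and Zbtb32 lie above the Fcer2a-positive range in every replicate, and Ighd, Cr2 and Ebf1 below it.

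Neutrophil and erythroid transcripts were lower in the B1-like cells than in the comparison class. The 9 neutrophil genes summed to 102 CPM against 774 in Fcer2a-positive cells, the 8 erythroid genes to 105 against 1065, and the 13 monocyte and macrophage genes to 186 against 246. The 10 dendritic cell genes were at a like level in both, 23.5 CPM against 21.7, although Xcr1, Clec9a, Clec10a and Cd209a were at 0 in all B1-like cells. The 12 T cell genes summed to 333 CPM against 307 and the 8 natural killer cell genes to 122 against 116, so these were not lower either. The 7 plasma cell defining genes were higher and summed to 188 CPM (23.7 to 583 between replicates) against 41.6 in Fcer2a-positive cells. Their means were 222, 223 and 48.2 CPM in the B1-like cells of WT, R594C/+ and R594C/R594C. Of these genes Derl3 averaged 32.9 against 3.34 CPM and Oosp1 33.6 against 2.51, each higher in 10 of 10 replicates, while Slpi (73.2 against 23.8) was higher in 7 and Prg2 in 5. Hid1 was at 0 and Sdc1 (CD138) had 21 UMIs in all, and the part of plasma cell transcripts in the results on secretion was not tested. Germline-type B1a variable segments (11 listed) summed to 8.16 CPM, too few to describe at this depth.

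Antibody tags, an independent measure of the same cells, gave the surface phenotype. Against Fcer2a-positive B cells 52 of 169 tags passed (30.8%; edgeR quasi-likelihood test with the replicate as a block, Benjamini-Hochberg adjusted p under 0.05), 40 higher and 12 lower. The split moved with the scaling, to 32 higher and 26 lower by DESeq2 and 36 and 18 without composition scaling. CD73, the product of Nt5e, had 6.86 ± 2.0 UMIs per cell (SD, n = 10) against 0.51, from 3.00 to 9.36 between replicates with a median of 6.48, where Fcer2a-positive cells ran from 0.31 to 0.75, a log2 fold of 3.63 ± 0.14 (SE, edgeR adjusted p = 1.3e-24). The ranges were far apart. CD43 had 15.7 ± 3.2 UMIs against 1.71, from 12.5 to 22.4 with a median of 15.2, a log2 fold of 3.07 ± 0.12. CD80, a costimulator, had 1.62 ± 0.19 against 0.21, a log2 fold of 2.90 ± 0.15.

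CD5 was higher too, in a smaller share of cells. It had 5.30 ± 1.9 UMIs per cell, from 2.32 to 7.54 with a median of 6.08, against 1.19 in Fcer2a-positive cells, where replicates ran from 1.01 to 1.32 (log2 fold 1.96 ± 0.14, edgeR adjusted p = 1.9e-16). The median B1-like cell held 3 CD5 UMIs and the median Fcer2a-positive cell 1. Of the B1-like cells 47.3% (exact 95% interval 42.8 to 51.8, counting error only) lay above the 90th percentile of Fcer2a-positive cells for CD5, whereas 80.4% (76.6 to 83.8) did for CD43 and 76.0% (72.0 to 79.6) for CD73. These shares pool the genotypes, and for CD5 they differed: 28.1% of WT cells, 50.6% of heterozygous cells and 60.5% of homozygous cells. The percentile was taken within each genotype, at 3 CD5 UMIs for WT and heterozygous cells and 2 for homozygous cells. Cd5 transcripts numbered only 26 UMIs in all members.

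Further tags were higher in all 10 replicates. They included CD49f (integrin alpha-6, log2 fold 2.19), Tim4 (2.00), CD172a (1.97), CD95 (1.92), Ly6A/E (Sca-1, 1.92), CD29 (the integrin chain of Itgb1, 1.91), CD39 (1.90, which with CD73 turns extracellular ATP into adenosine) and CD9 (1.34). CD11b, an integrin chain found on B1 cells of body cavities and on myeloid cells, had 4.48 ± 2.1 UMIs per cell against 1.303 (log2 fold 1.75 ± 0.48, edgeR adjusted p = 0.0163), with R594C/+ replicate 2 the highest at 8.47.

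IgD was the tag most reduced, at 14.8 ± 5.0 UMIs per cell, from 7.83 to 25.4 with a median of 15.2, against 90.5 in Fcer2a-positive cells, which ran from 77.1 to 103 (log2 fold -2.80 ± 0.15, edgeR adjusted p = 5.1e-11). No replicate came near the other class. CD21/CD35 (-1.76), CD55 (-1.49), CD79b (-1.09) and CD45R/B220 (-0.84) were also lower in all 10 replicates. CD23 (-2.06) and CD79b read the proteins of genes that chose the cells and are no independent evidence. IgM stood at 0.64 UMIs per cell against 0.53 and did not pass (log2 fold 0.10, edgeR adjusted p = 0.81). This tag was sparse. In B1-like cells led by Ighm it had 0.77 UMIs per cell, where a rat IgG1 isotype control, without a mouse target, had 0.46. In cells of 3000 to 6000 RNA UMIs only, CD86 went from a log2 fold of 1.15 to -0.03.

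Against the marginal zone gate class 42 of 168 tags passed (25%), 28 higher and 14 lower. CD43 (log2 fold 2.14 ± 0.10) and CD73 (1.98 ± 0.11) again led, followed by CD49f (1.46), CD80 (1.41), CD95 (1.31) and CD5 (1.16), each higher in 10 of 10 replicates. CD21/CD35 was lower by 2.34 on the log2 scale, with 1.33 against 7.02 UMIs per cell. CD1d, the lipid-presenting molecule that is high on marginal zone B cells, had 6.44 UMIs per cell against 19.4 (log2 fold -1.48), and IgM 0.64 against 1.26 (-0.92). Tim4 was at 2.21 against 2.49 UMIs per cell and CD38 at 68.1 against 79.6, and neither passed.

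**Figure D2:**
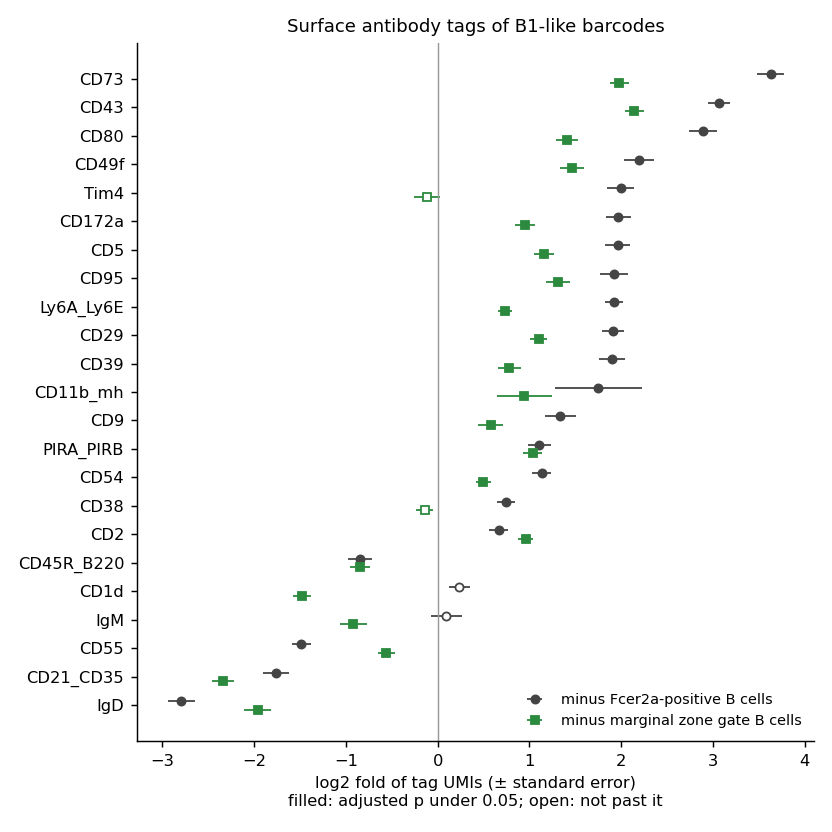
Log2 fold (± SE) of selected antibody tags in B1-like cells against Fcer2a-positive (circles) and marginal zone gate (squares) B cells, edgeR over 10 replicates with the replicate as a block. Filled symbols passed the adjusted threshold of 0.05. CD73 and CD43 are highest in both contrasts. Tim4 and CD38 passed against Fcer2a-positive and not against marginal zone gate cells, and CD1d and IgM the other way round.

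The heavy chain constant gene with the most UMIs was Ighm in 356 of the 499 B1-like cells (71.3%, exact 95% interval 67.2 to 75.3), an Ighg gene in 125 (25.1%, 21.3 to 29.1), Igha in 18 (3.61%, 2.15 to 5.64) and Ighd in 0, which allows a share of up to 0.60%. An Ighg gene led in 0.72% of Fcer2a-positive and 3.46% of marginal zone gate cells. Among the IgG cells Ighg3, the isotype known from responses to polysaccharides, led in 20, 35 and 10 cells of WT, R594C/+ and R594C/R594C, Ighg2b in 11, 21 and 3, Ighg2c in 2, 15 and 1, and Ighg1 in 3, 2 and 2. Lambda light chain UMIs outnumbered kappa in 15.2% of B1-like, 7.63% of Fcer2a-positive and 9.73% of marginal zone gate cells.

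The IgM and the switched cells shared most of the surface pattern. CD43 was at 15.3 UMIs per cell in the 356 IgM cells and 16.6 in the 143 switched cells, and CD80 at 1.598 and 1.64. IgD was at 17.1 and 5.12 and IgM at 0.77 and 0.19, both higher in the IgM cells of all 10 replicates. CD24 was at 26.7 and 13.2 and CD5 at 6.38 and 4.36, each higher in the IgM cells of 8 of 10, whereas CD73 was at 6.02 and 9.94 and higher in the IgM cells of 3 of 10. These values are descriptions, since the isotype was read from the same cells.

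Isotype shares varied widely between replicates. Ighm led in 80.0%, 41.5%, 86.4% and 85.7% of B1-like cells in WT replicates 1 to 4, 77.5%, 65.8%, 72.4% and 52.5% in R594C/+, and 92.3% and 79.7% in R594C/R594C. WT replicate 2 lay far below the other 3 of its group, and the groups overlapped. The correlation with the number of R594C alleles was 0.22 for Ighm (p = 0.543, exact permutation test, two-sided), -0.16 for IgG (exact permutation p = 0.651), -0.31 for Igha (exact permutation p = 0.366) and 0.37 for lambda over kappa (exact permutation p = 0.295), and over these 4 shares each adjusted p was 0.651. Without WT replicate 2 the lambda correlation was 0.83 (exact permutation p = 0.00794), and the signs for Ighm and IgG turned, to -0.04 and 0.09. The 4 replicates with male transcripts had Ighm in 80.0% to 92.3% and the 6 with female transcripts in 41.5% to 79.7%, and the part of sex in the isotype shares was not tested.

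The share of B1-like cells was compared between genotypes over replicates. B1-like cells made up 1.596%, 2.31%, 1.20% and 1.74% of gated B cells in WT (mean 1.71% ± 0.46, SD, n = 4), 3.87%, 2.18%, 2.72% and 3.56% in R594C/+ (3.08% ± 0.77, n = 4), and 1.43% and 1.498% in R594C/R594C (1.46% ± 0.05, n = 2). R594C/+ replicates lay above WT except that replicate 2 was under WT replicate 2, and both R594C/R594C replicates lay inside the WT range. The share did not follow the number of alleles (r = 0.08, p = 0.836, exact permutation test over 3150 assignments). R594C/+ was above WT by 1.37 percentage points (exact permutation p = 0.0571, adjusted over the 3 pairs 0.171). R594C/R594C was 0.25 points under WT (exact permutation p = 0.533) and 1.62 points under R594C/+ (exact permutation p = 0.133), comparisons in which 0.0667 is the smallest p that can be reached.

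The highest WT share was in replicate 2, the WT replicate with female transcripts, and all R594C/+ replicates had female transcripts, and the part of sex in this difference was not tested. With no Zbtb20 required, 676 cells were chosen and R594C/+ was 1.67 points above WT (exact permutation p = 0.0286, not adjusted over the pairs, and the smallest that 4 against 4 can give). When Myof, Dtx1 and S1pr3 were allowed, 919 cells were chosen and the mean shares were 3.65%, 5.24% and 2.66%.

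**Figure D3:**
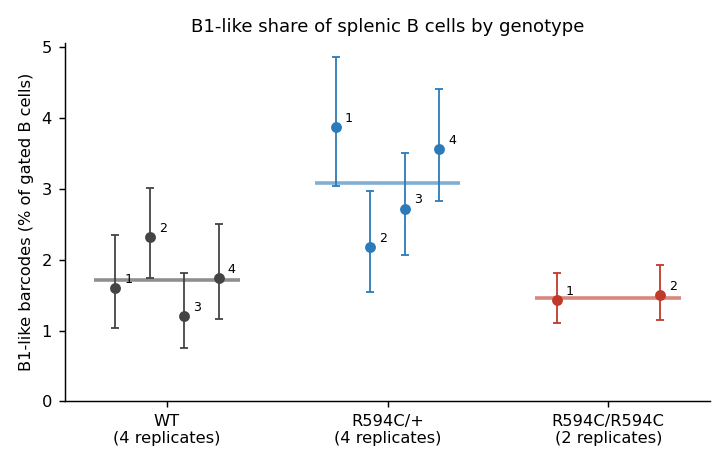
B1-like cells as a percentage of gated B cells in each numbered hashtag replicate, by genotype. Points carry exact 95% binomial intervals, which cover counting error only, and horizontal lines are group means (1.71%, 3.08% and 1.46%). The 2 R594C/R594C replicates lie within the WT range, and R594C/+ is spread most widely.

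Expression within the B1-like cells was compared between genotypes on summed UMIs. Ern1 itself (chromosome 11, 106397620 to 106487796) had 16 UMIs in all and could not be tested, so the mutated gene gives no check of the labels here, and a substitution would not show in 3' counts. Xbp1, whose UMIs were limited by the choice, ran from 61.0 to 106.8 CPM in WT, 58.3 to 106.7 in R594C/+ and 69.8 to 73.9 in R594C/R594C. Bhlhe41 and Zbtb20 also overlapped between all genotypes. Of the markers outside the choice, Apoe differed by a log2 fold of -0.01 ± 0.57 between R594C/R594C and WT and Nt5e by 0.01 ± 0.31 (SE). Zbtb32 was at 108.4, 95.2, 83.0 and 106.5 CPM in WT, at 51.6, 40.0, 69.4 and 71.8 in R594C/+ and at 55.3 and 53.2 in R594C/R594C. Its WT values did not overlap the others, yet neither contrast passed over all genes (log2 fold -0.86 ± 0.31, edgeR adjusted p = 0.42, for R594C/R594C minus WT).

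Of 5719 genes 3 passed in R594C/R594C minus WT (0.0525%; edgeR quasi-likelihood test, Benjamini-Hochberg adjusted p under 0.05), 0 in R594C/+ minus WT (0%) and 0 in R594C/R594C minus R594C/+ (0%). At an unadjusted p under 0.05 edgeR gave 457, 300 and 279 genes (7.99%, 5.25% and 4.88% of those tested). At the adjusted threshold DESeq2 called 7, 1 and 0. Lgals3, which encodes galectin-3, was at 149, 202, 133 and 189 CPM in WT, 72.7, 63.4, 117 and 153 in R594C/+ and 20.4 and 53.2 in R594C/R594C (log2 fold of R594C/R594C over WT -2.23 ± 0.41, edgeR adjusted p = 0.0445). Gm45153, a gene model with no known role, was at 54.2, 69.3, 77.4 and 71.0 CPM in WT, 86.7 to 114 in R594C/+ and 154 and 207 in R594C/R594C (1.38 ± 0.25, edgeR adjusted p = 0.0282). The R594C/R594C values of both genes lay outside those of the other groups.

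Hbb-bs, a beta globin gene of red cells, was at 20.3, 20.2, 5.53 and 11.8 CPM in WT, 58.6, 33.4, 58.3 and 57.9 in R594C/+ and 143 and 65.0 in R594C/R594C (log2 fold 2.71 ± 0.43, edgeR adjusted p = 0.008). The 8 erythroid genes summed to 34.3, 130 and 197 CPM and the 9 neutrophil genes to 27.9, 103 and 251 in WT, R594C/+ and R594C/R594C, and their part in this result was not tested. In members without a myeloid UMI the log2 fold was 1.51 (edgeR adjusted p = 0.55).

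None of the 3 calls held under every alternative. In IgM cells alone, which were fewer, none passed, with log2 folds of 2.55 for Hbb-bs (edgeR adjusted p = 0.10), 1.047 for Gm45153 (0.46) and -2.24 for Lgals3 (0.67). Hbb-bs was lost without WT replicate 4 (edgeR adjusted p = 0.056) or R594C/R594C replicate 1 (0.38). Gm45153 was lost without WT replicate 1 (edgeR adjusted p = 0.13), WT 4 (0.11), R594C/+ 3 (0.064) or R594C/R594C 2 (0.49). Lgals3 was lost without WT 1 (edgeR adjusted p = 0.15), WT 2 (0.052), WT 4 (0.18), R594C/+ 3 (0.072) or R594C/R594C 1 (0.44). Without WT replicate 2 the count was 15 and without WT replicate 4 it was 0.

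Genes of the ER, on which IRE1 acts through spliced Xbp1, were read as lists. No chaperone gene passed in any contrast. Of 14 chaperones and disulfide isomerases tested, 12 were lower and 2 higher in R594C/R594C than in WT, with a median log2 fold of -0.59 beside -0.001 over all genes, and 10 were lower in R594C/+ than in WT (median -0.15, all genes -0.01). Hsp90b1 was at 1043, 707, 1117 and 1195 CPM in WT, 985, 1104, 893 and 744 in R594C/+, and 596 and 449 in R594C/R594C, so that both R594C/R594C replicates lay below the other 8 (log2 fold -0.97 ± 0.20, edgeR adjusted p = 0.083). Sdf2l1, a chaperone cofactor, had a log2 fold of -1.77 ± 0.41 (edgeR adjusted p = 0.17), Manf, a stress-induced factor, -1.04 ± 0.28 (edgeR adjusted p = 0.27), and Pdia4 0.00 ± 0.21. In Fcer2a-positive cells 14 of 15 of the list were lower, with a median of -0.21.

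Few barcodes carried much of these sums. In WT replicates 1 and 3 a single barcode each held 57.1% and 55.4% of the Hsp90b1 UMIs. The whole list summed to 4330, 3033, 4536 and 4196 CPM in WT, 3819, 3829, 3288 and 3198 in R594C/+, and 2563 and 2474 in R594C/R594C, with R594C/R594C below all others. Among members with 0 to 2 Xbp1 UMIs, which left out 24 cells (9, 12 and 3 by genotype), the sums were 2401, 2923, 4403 and 3254, then 2548, 3419, 2455 and 2676, and 2299 and 2412, and the ranges overlapped. Of 32 genes of ER translocation, glycosylation and transport 25 were lower in R594C/R594C than in WT (median -0.34), with Sec61b, a translocon subunit, at -0.68 ± 0.21 and Sec11c, of signal peptidase, at -0.61 ± 0.19, and none passed. This list summed to 3334 and 3208 CPM in R594C/R594C against 3738 or more in the other 8 replicates, and in members with 0 to 2 Xbp1 UMIs to 3198 and 3209 against 3334 or more, without overlap in either. In IgM cells alone it did overlap, at 3385 and 3139 CPM against 3318 in WT replicate 2 and 3338 in R594C/+ replicate 1. The chaperone list overlapped there too, at 2617 and 2357 CPM against 2519 in WT replicate 2 and 2469 and 2394 in R594C/+ replicates 1 and 3.

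Other lists also leaned without a call. All 15 proliferation genes were lower in R594C/R594C than in WT (median log2 fold -2.42), among them Mki67 at 47.4 to 225 CPM in WT and 17.5 and 8.87 in R594C/R594C. Few cells gave these values. A single barcode held 71.4%, 83.3%, 59.3% and 89.5% of the Mki67 UMIs of WT replicates 1 to 4, and the R594C/R594C replicates had 6 and 3 UMIs. The list's sums in members with 0 to 2 Xbp1 UMIs were 352 to 3359 CPM in WT and 386 to 779 in R594C/R594C, and overlapped. All 10 MHC class II genes were lower (median -0.25), as were 8 of 9 for MHC class I (median -0.39), while 15 of 16 immediate early genes were higher (median 0.50), Nr4a1 with 733 and 838 CPM in R594C/R594C against 237 to 707 in WT. Of 26 B1 genes tested 13 were higher and 13 lower (median -0.003), with Lgals1 at -1.04 ± 0.27 (edgeR adjusted p = 0.22). In Fcer2a-positive cells R594C/R594C minus WT also had 10 of 10 MHC class II genes lower (median -0.10) and 9 of 9 for class I (median -0.24). There 6 of 15 proliferation genes (median 0.03) and 3 of 16 immediate early genes (median 0.09) were lower. R594C/R594C minus WT and R594C/+ minus WT share the WT replicates, and none of these lists had a called gene in either.

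**Figure D4:**
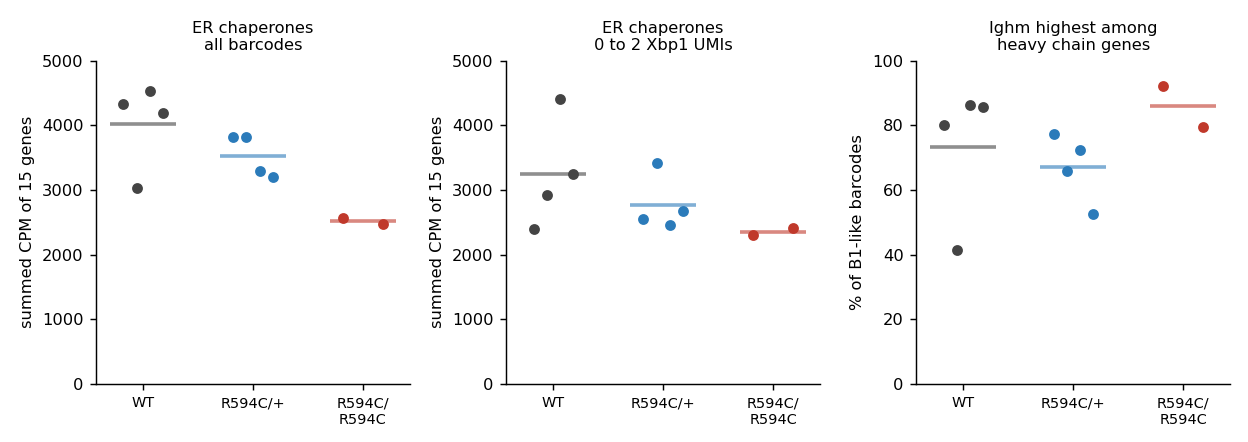
Each point is a replicate and each line a group mean. Left and centre, summed CPM of the 15 ER chaperone and disulfide isomerase genes in all B1-like cells and in those with 0 to 2 Xbp1 UMIs. R594C/R594C (2563 and 2474) lies below every other replicate on the left and overlaps WT in the centre. Right, percentage of B1-like cells led by Ighm, with WT replicate 2 at 41.5%.

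Antibody tags differed between genotypes more often than transcripts. Of 102 tags 21 passed in R594C/R594C minus WT (20.6%), 6 higher and 15 lower, 5 in R594C/+ minus WT (4.9%), 2 higher and 3 lower, and 3 in R594C/R594C minus R594C/+ (2.94%), 2 higher and 1 lower. The split in R594C/R594C minus WT was 12 higher and 10 lower by DESeq2 and 2 and 22 without composition scaling, and the median log2 fold of all tags was -0.18, 0.007 and -0.55 by edgeR, DESeq2 and edgeR without composition scaling, so UMIs per cell are given beside each fold. The same test in Fcer2a-positive cells called 124 of 170 tags in R594C/R594C minus WT and 105 in R594C/+ minus WT, and the part of staining and capture in the tag differences cannot be told apart from genotype. The 15 lower tags were sparse, with WT means of at most 0.98 UMIs per cell. CD169 had 0.67, 0.40 and 0.04 UMIs per cell in the B1-like cells of WT, R594C/+ and R594C/R594C, and the isotype control IgG1 (rat, lambda), which binds no mouse target, 0.98, 0.37 and 0.26. Fcer2a-positive cells showed the same order for both, 0.74, 0.30 and 0.09 and then 0.83, 0.39 and 0.15.

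CD5 was the tag with the clearest pattern. It was at 3.24, 4.23, 2.91 and 2.32 UMIs per cell in WT, 6.11, 7.11, 6.72 and 6.05 in R594C/+ and 6.75 and 7.54 in R594C/R594C. Every mutant replicate lay above every WT replicate. The log2 fold was 1.495 ± 0.25 in R594C/R594C (edgeR adjusted p = 0.0015) and 1.07 ± 0.21 in R594C/+ (edgeR adjusted p = 0.0104). In Fcer2a-positive cells of the same replicates CD5 averaged 1.12, 1.27 and 1.17 UMIs per cell, although their fit, under its own composition scaling, gave log2 folds of 1.12 and 0.58 (edgeR adjusted p = 0.00016 and 0.0094). In IgM cells alone the folds were 1.18 and 0.95 and no longer passed (edgeR adjusted p 0.055 and 0.095). Cd5 transcripts were at 0 to 5.53 CPM in WT, 6.95 to 13.3 in R594C/+ and 11.8 and 14.5 in R594C/R594C, on 26 UMIs and without a test. In marginal zone gate cells the CD5 tag ran from 1.49 to 3.41 UMIs per cell in WT. It ran from 2.67 to 3.06 there in R594C/+ and from 2.22 to 2.90 in R594C/R594C, without a test between genotypes.

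CD24, a glycoprotein that is high on immature B cells, was at 19.3, 15.6, 17.8 and 16.9 UMIs per cell in WT, 20.0, 19.9, 25.7 and 18.1 in R594C/+ and 32.9 and 33.7 in R594C/R594C. Both R594C/R594C replicates lay above all 8 others (log2 fold over WT 1.27 ± 0.16, edgeR adjusted p = 0.00032, and over R594C/+ 0.96 ± 0.16, edgeR adjusted p = 0.0059). The second of these was lost without R594C/R594C replicate 2 (edgeR adjusted p = 0.13) and in IgM cells alone (0.13). In Fcer2a-positive cells CD24 averaged 17.3, 17.4 and 21.5 UMIs per cell. Their fit, under its own composition scaling, gave a log2 fold of 1.38 in R594C/R594C minus WT (edgeR adjusted p = 2e-05). CD24 was higher in IgM than in switched cells, and in IgM cells alone it stood at 18.8, 24.6 and 36.2 UMIs per cell by genotype, with a log2 fold of 1.16 in R594C/R594C minus WT that passed (edgeR adjusted p = 0.0084).

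IgD followed a different order. It was at 17.6, 14.5, 16.0 and 25.4 UMIs per cell in WT, 11.7, 10.2, 10.97 and 7.83 in R594C/+ and 16.0 and 17.6 in R594C/R594C, so that R594C/+ lay below both other groups without overlap (log2 fold -0.79 ± 0.16 against WT, edgeR adjusted p = 0.0104). R594C/R594C was above R594C/+ by 1.02 ± 0.19 (edgeR adjusted p = 0.0067). The first was lost without WT replicate 1 (edgeR adjusted p = 0.058), WT 3 (0.062) or R594C/R594C 2 (0.052), and the second without R594C/R594C 2 (0.16) and in IgM cells alone (0.055). Fcer2a-positive cells held 86.9, 89.7 and 99.2 IgD UMIs per cell. Their fit, under its own composition scaling, gave a log2 fold of 0.44 in R594C/+ minus WT (edgeR adjusted p = 0.019). CD73 ran from 3.00 to 9.36 in WT and enclosed both mutant groups.

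**Figure D5:**
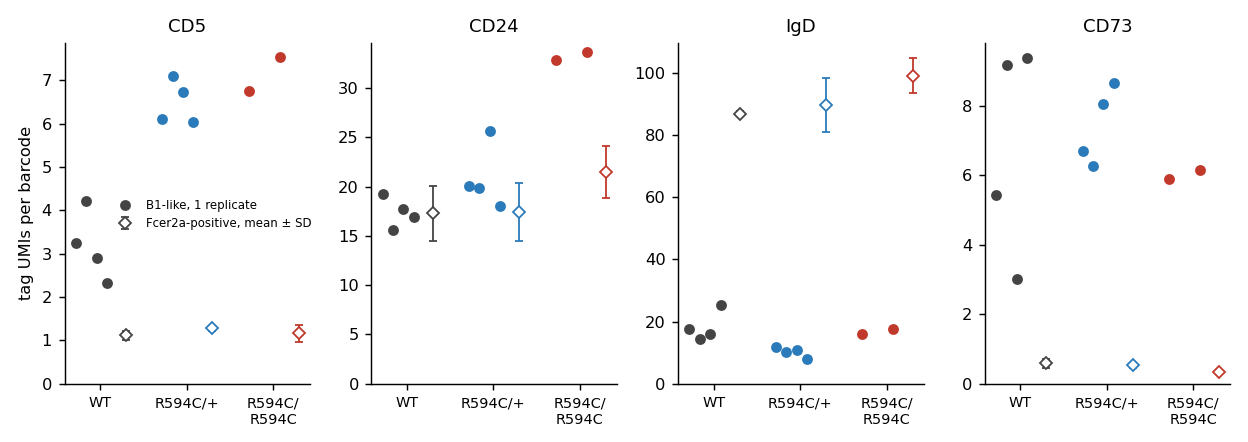
UMIs per cell of the CD5, CD24, IgD and CD73 tags. Filled points are B1-like cells of 1 replicate, and open diamonds are Fcer2a-positive B cells (mean ± SD over replicates). CD5 is higher in every mutant B1-like replicate than in WT (2.32 to 4.23), and Fcer2a-positive cells stay near 1 UMI. The difference between these classes did not pass with composition scaling (edgeR adjusted p = 0.12 in R594C/R594C and 0.054 in R594C/+) and passed without it. CD24 is highest in R594C/R594C and IgD lowest in R594C/+.

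Whether a genotype difference was unlike that of Fcer2a-positive cells was tested as an interaction. For tags 6 of 169 passed in R594C/R594C minus WT (3.55%), all lower beside a median of -0.48 over all tags, and 1 in R594C/+ minus WT (0.592%). The one in R594C/+ was IgD, whose fold was lower in B1-like cells by 0.94 (edgeR adjusted p = 0.0019), with a value of -0.91 without composition scaling and -0.98 in IgM cells alone. It was lost without WT replicate 4 (edgeR adjusted p = 0.081) or R594C/R594C replicate 2 (0.075). Of the 6 in R594C/R594C none passed without composition scaling, where CD5 (1.18, edgeR adjusted p = 0.0081), CD49f and CD80 passed as higher. In R594C/+ without that scaling CD5 (0.82, edgeR adjusted p = 0.031) and CD49f (1.047, edgeR adjusted p = 0.026) passed as higher beside IgD. With composition scaling CD5 differed by 0.68 in R594C/R594C (edgeR adjusted p = 0.12) and 0.79 in R594C/+ (edgeR adjusted p = 0.054). CD24 in R594C/R594C differed by 0.16 with composition scaling (edgeR adjusted p = 0.57) and by 0.66 without it (edgeR adjusted p = 0.054).

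For transcripts 1 of 9466 genes passed in each contrast (0.0106% and 0.0106%). Igha, the IgA heavy chain, differed by -1.77 in R594C/R594C minus WT (edgeR adjusted p = 0.00044), with 203, 638, 260 and 391 CPM in the B1-like cells of WT and 125 and 174 in those of R594C/R594C. It was lost without R594C/R594C replicate 1 (edgeR adjusted p = 0.14) and in cells of 3000 to 6000 UMIs (-0.58, edgeR adjusted p = 0.90). Few barcodes held much of the Igha UMIs in WT. The highest barcode held 34.8%, 36.2% and 66.7% of them in WT replicates 2, 3 and 4. In R594C/R594C replicates 1 and 2 the highest barcode held 20.9% and 16.9%. The mitochondrial gene mt-Cytb differed by 0.73 in R594C/+ minus WT (edgeR adjusted p = 0.0036), and was lost without WT replicate 3 (0.14), R594C/+ 1 (0.06) or R594C/+ 3 (0.13) and by DESeq2 (0.33).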

How the data were processed

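Per the file headers the authors' matrices were written by Cell Ranger 5.0.0, and the submitters' processing notes name Cell Ranger, STAR, Seurat 3.1.4 and mm10. The deposited values are UMI counts of 55385 gene rows, 191 antibodies and 24 hashtags per barcode, with no barcode under 500 RNA UMIs. Per the labels' protocols the libraries were 3' NextGEM 3.1 with TotalSeq-A antibodies. The sources used here state no mapping parameters. Barcodes took the replicate of the top of 4 hashtags (at least 20 UMIs and 3 times the next). Doublets of different hashtags fall outside this margin, and doublets within a hashtag were kept (a scored alternative removed 4, 2 and 5 members by genotype). The members and the 34 gene lists were chosen with earlier results of these data known.

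UMIs were summed per replicate and class. Genotypes and tags were tested with edgeR 4.0.16 (quasi-likelihood, robust, TMM scaling, expression filter; tags with a mean of at least 10 UMIs) in R 4.3.3, with Benjamini-Hochberg adjustment over all features except the 12 genes of the choice, at 0.05; DESeq2 1.42.0 was an alternative. All 10 replicates shared 1 estimate of the spread, and contrasts with WT share its replicates. Class comparisons and interactions had the replicate as a block. Shares were tested by exact two-sided permutation over replicates. Transcripts of the classes are CPM per replicate, with log2 ratios at a pseudocount of 10 CPM. The rule for names took, between genotypes, Ern1, Xbp1, the markers and up to 10 called features in each direction, between classes up to 6 genes at each end of a list, and a fixed set of B cell tags. Genes named beyond it (genotype values of single list members, and class genes outside the lists) were chosen after their values were seen. The fits were tested on simulated counts. Alternatives were other scalings, filters, gates, depths and left-out replicates. Gene positions come from RefSeq (GRCm38.p6), matched by symbol. Results on some genes and tags are not reported here.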

Additional observations from a re-analysis of the deposited data

Results flagged for a closer look

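In 54 groups of 4 replicates, 4 values lay far from the other 3 by Dixon's criterion, and chance alone gives about 1 in 20 groups. WT replicate 2 had Ighm as the leading heavy chain in 41.5% of B1-like cells and an Ighg gene in 49.1%. R594C/+ replicate 2 had 33.4 CPM of Hbb-bs, below the other 3 of its group, and 8.47 UMIs per cell of the CD11b tag, above them.

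The other results were genotype effects that differed between B1-like and Fcer2a-positive B cells by the interaction test of edgeR. In R594C/R594C minus WT the log2 fold in B1-like cells minus that in Fcer2a-positive cells was -1.77 for Igha transcripts. For tags it was -1.07 for CD45R/B220, -1.06 for CD140a, -0.98 for CD22, -0.77 for CD2, -0.74 for IgD and -0.65 for CD48, none of which passed without composition scaling. In R594C/+ minus WT the difference was -0.94 for the IgD tag and 0.73 for mt-Cytb.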

How the results depend on the processing

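4 alternatives were chosen after seeing the data: IgM members only, at most 2 Xbp1 UMIs, the marginal zone genes allowed, and the tag interaction. The share's correlation with alleles (0.08) was -0.022 with 2 Bhlhe41 UMIs, -0.10 with marginal zone genes allowed, and -0.071 to 0.29 leaving out single replicates. R594C/+ minus WT was 1.67 points with Zbtb20 not required and 1.11 to 1.67 leaving out replicates, R594C/R594C minus WT -0.42 to -0.05 and R594C/R594C minus R594C/+ -1.92 to -1.36. Leaving out replicates, correlations ran from -0.042 to 0.36 for Ighm, -0.29 to 0.090 for IgG, -0.50 to -0.16 for Igha and 0.18 to 0.83 for lambda, the extremes -0.042, 0.090 and 0.83 without WT replicate 2.

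Genes called in R594C/R594C minus WT (3) numbered 7 by DESeq2, 67 with no filter, 8 with sex as a covariate, 0 with the replicate block, without myeloid UMIs or in IgM members, and 0 to 15 leaving out replicates. In R594C/+ minus WT (0) they were 1 by DESeq2, 8 with no filter, 2 with the block and 0 to 2 leaving out replicates. In R594C/R594C minus R594C/+ (0) they were 21 with no filter, 3 with the block, 7 with sex, 2 with the gate thinned and 0 to 2 leaving out replicates. Tags called in R594C/R594C minus WT (21) were 52 with no filter, 5 in IgM members, 11 with at most 2 Xbp1 UMIs and 7 to 24 leaving out replicates (7 without R594C/R594C 2). In R594C/+ minus WT (5) they were 8 by DESeq2, 17 with no filter, 1 in IgM members and 2 to 8 leaving out replicates (2 without WT 1, 8 without R594C/R594C 1). In R594C/R594C minus R594C/+ (3) they were 0 in IgM members and 0 to 5 leaving out replicates (0 without R594C/R594C 2).

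Class tags (52 and 42) were 51 to 55 and 33 to 44 leaving out replicates. CD86 against Fcer2a-positive cells turned to -0.028 at 3000 to 6000 UMIs, and IA_IE to -0.20 by DESeq2 and -0.57 at 3000 to 6000 UMIs. Interaction genes in R594C/R594C minus WT (1) were 21 with no filter, 2 by DESeq2, 4 at 3000 to 6000 UMIs and 1 to 9 leaving out replicates. In R594C/+ minus WT (1) they were 14 with no filter, 0 by DESeq2, 9 at 3000 to 6000 UMIs and 0 to 8 leaving out replicates. Interaction tags (6 and 1) were 3 and 3 without composition scaling, 0 for R594C/R594C in IgM members, and 0 to 11 and 0 to 4 leaving out replicates.

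Replicate numbers did not pair samples (mean correlation of same-numbered deviations -0.01, from -0.19 to 0.16 over 8 pairs). With the replicate block tags called were 26, 4 and 4, and the share's correlation was 0.12 (exact permutation p = 0.819). Of 2676 refits of 173 named features, 2412 kept the call or its absence (161 of them with a change of sign at an adjusted p above 0.05 in both fits), 212 lost the call, 49 gained it and 3 reversed. Few cells per replicate (22 to 80) limit what single genes can show.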
